A study of Mus musculus with 12 samples.

Results

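The genes described here are 34 genes of glucose breakdown and of the cell's response to low oxygen, read out in mouse pancreatic stellate cells (PSCs), the fibroblast-like cells of the pancreas. They were chosen by symbol, for their function, from the 39179 genes of the count table, and each was found in 1 row. They comprise 2 glucose transporters, 15 enzymes of glycolysis, 4 genes of lactate formation and transport, 4 pyruvate dehydrogenase kinases, 2 enzymes that set the level of fructose 2,6-bisphosphate, the hypoxia-inducible factor subunit Hif1a with 2 of its prolyl hydroxylases, and 4 further genes of the hypoxia response. The question put to them was how their transcripts in PSCs differ when tumour cells, and then macrophages (MØs), share the culture.

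In glycolysis, glucose enters the cell through transporters, is trapped by hexokinase as glucose 6-phosphate, and is broken down in a fixed series of enzyme steps to pyruvate, which lactate dehydrogenase can turn into lactate for export. The transcription factor HIF1A is hydroxylated by the EGLN enzymes and degraded while oxygen is plentiful. When oxygen falls it accumulates, pairs with ARNT and binds a short DNA motif near many glycolytic genes. Its level can also rise with inflammatory signals through transcription of Hif1a itself, and fibroblasts of pancreatic tumours are known for active glycolysis and lactate export.

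All libraries came from PSC-mCherry, an immortalised mouse PSC line (C57BL/6 in the labels) carrying a red fluorescent label. Cells were kept for 72 h alone (mono-PSCs, 4 libraries), with the mouse pancreatic cancer line PCC-EGFP (2W-PSCs, 4 libraries), or with PCC-EGFP and the MØ line MØ-TagBFP (3W-PSCs, 4 libraries), at the same total cell number and in medium of high glucose. After culture the PSCs were sorted as mCherry-positive and EGFP- and TagBFP-negative, RNA was extracted, and 3′ ends of polyadenylated RNA were sequenced. The PSCs are 1 clone of 1 line, so the libraries do not sample different animals. Because PSCs took a smaller share of the flask in each co-culture at the same total number, the presence of other cells and the lower number of PSCs cannot be told apart.

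Between 4561817 and 8093368 counts were assigned per library and the lowest total was that of 2W replicate 2. That library stood apart. Its Spearman correlation over genes with the other 2W libraries was 0.852 to 0.917, whereas any other pair of libraries of the same culture gave 0.947 to 0.987, and it held the highest 2W value for 16 and the lowest for 12 of the 33 genes that could be tested. Levels below are CPM, counts scaled to a common library size over all 12 libraries. Since the 3′ protocol gives about 1 fragment per transcript, CPM were compared between genes without a length correction.

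Markers of other cell types moved with the cultures. The summed level of 10 epithelial markers was 0.484 to 2.46 CPM in the mono libraries, 75 to 148 CPM in the 2W libraries and 51.8 to 91.2 CPM in the 3W libraries, while Epcam, Cldn4, Cldn7 and Esrp1 had 0 or nearly 0 counts throughout. The summed level of 13 MØ markers was 1.60 to 7.44, 2.25 to 10.5 and 7.75 to 44.9 CPM in the same order, with Emr1 at 0 in every library and the highest sum in 3W replicate 4. The 12 fibroblast and stellate cell markers summed to 8997 to 12784 CPM in the mono libraries and 12631 to 19633 CPM in the 2W libraries. In the 3W libraries they summed to 7207 to 8737 CPM. Sparc, Col1a1, Col1a2 and Vim had the highest means. At an edgeR adjusted p under 0.05, 1 of 10 tested was higher and 6 lower in 3W-PSCs than 2W-PSCs, beside 5.73% and 4.95% of all genes. The 1 higher was Pdgfra, with means of 6.79, 14.4 and 34.6 CPM in mono-PSCs, 2W-PSCs and 3W-PSCs. Desmin, a marker of stellate cells, averaged 1.68, 0.728 and 1.47 CPM and was thus near 0. The part of carried-over RNA in the results below was not tested. In sorted bulk samples, fewer cells of a type and less RNA per cell cannot be told apart.

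The promoters of the 5 genes that rose in 3W-PSCs against both other cultures, and of Adm, which fell, are shown because the core of the HIF-binding motif, ACGTG or GCGTG on either strand, can be read in them. Each is the RefSeq window on GRCm38.p6 from 250 bases before to 50 after an annotated start, 5′ to 3′ along the gene, with each motif match in capitals (CACGT and CACGC are the same cores read on the other strand, and CACGTG holds the core on both strands). The windows are chr4:119108495-119108794 on the plus strand for Slc2a1, chr6:82774405-82774704 on the minus strand for Hk2, chr7:46845554-46845853 on the plus strand for Ldha (the first of its 2 windows), chr12:73907617-73907916 on the plus strand for Hif1a, chr12:54203825-54204124 on the minus strand for Egln3, and chr7:110627407-110627706 on the plus strand for Adm.
Slc2a1: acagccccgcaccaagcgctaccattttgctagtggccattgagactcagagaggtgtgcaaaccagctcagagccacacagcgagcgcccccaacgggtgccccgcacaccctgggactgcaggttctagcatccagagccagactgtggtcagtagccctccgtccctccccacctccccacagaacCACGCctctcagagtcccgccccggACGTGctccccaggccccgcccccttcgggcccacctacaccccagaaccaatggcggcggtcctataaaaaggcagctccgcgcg
Hk2: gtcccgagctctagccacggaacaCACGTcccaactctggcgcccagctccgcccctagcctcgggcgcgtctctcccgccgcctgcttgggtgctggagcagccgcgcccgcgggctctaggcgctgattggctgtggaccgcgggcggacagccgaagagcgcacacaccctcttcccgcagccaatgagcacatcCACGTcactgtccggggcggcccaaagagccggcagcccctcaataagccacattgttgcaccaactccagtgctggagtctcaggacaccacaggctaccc
Ldha: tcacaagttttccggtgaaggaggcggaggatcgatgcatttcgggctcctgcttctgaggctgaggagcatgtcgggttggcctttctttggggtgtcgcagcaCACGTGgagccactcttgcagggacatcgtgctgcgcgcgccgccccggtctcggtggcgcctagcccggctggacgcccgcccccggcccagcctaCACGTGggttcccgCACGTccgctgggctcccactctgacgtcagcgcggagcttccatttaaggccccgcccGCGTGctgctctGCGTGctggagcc
Hif1a: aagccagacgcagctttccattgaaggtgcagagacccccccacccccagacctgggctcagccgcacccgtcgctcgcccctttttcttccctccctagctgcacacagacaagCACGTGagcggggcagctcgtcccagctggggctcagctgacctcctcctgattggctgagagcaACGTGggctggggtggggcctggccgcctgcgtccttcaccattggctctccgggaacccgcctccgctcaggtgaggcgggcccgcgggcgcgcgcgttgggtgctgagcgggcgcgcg
Egln3: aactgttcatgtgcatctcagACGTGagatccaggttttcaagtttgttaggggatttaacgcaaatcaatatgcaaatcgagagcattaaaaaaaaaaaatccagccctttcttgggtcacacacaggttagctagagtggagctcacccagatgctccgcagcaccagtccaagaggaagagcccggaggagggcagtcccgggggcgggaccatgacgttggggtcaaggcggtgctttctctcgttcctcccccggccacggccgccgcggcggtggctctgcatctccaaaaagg
Adm: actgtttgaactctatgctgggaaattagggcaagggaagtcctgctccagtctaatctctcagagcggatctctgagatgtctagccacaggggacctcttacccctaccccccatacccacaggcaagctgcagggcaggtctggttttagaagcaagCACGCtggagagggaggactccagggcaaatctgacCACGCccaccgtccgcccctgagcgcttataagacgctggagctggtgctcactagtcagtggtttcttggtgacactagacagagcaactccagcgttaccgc
Ldha held 5 separate matches, Slc2a1, Hk2, Hif1a and Adm 2 each, and Egln3 1. RefSeq windows were matched for 32 of the 34 genes, all but Slc2a3 and Ndrg1, and 29 of the 32 (90.6%) had a match in at least 1 window. The share by gene was not taken over all genes, and a gene with several windows has more chances of a match. By window the share was 37 of 46 (80.4%), beside 63.3% of the 10813 windows of genes that entered the test of 3W-PSCs against 2W-PSCs and 43.8% of all 32851 windows. Median GC content was 61.8% in the windows of the 34 genes, 61.3% in those of tested genes and 52.7% in all. The promoter of Adm, whose transcript was lower in 3W-PSCs than mono-PSCs, held as many matches as those of Slc2a1 and Hk2. Whether HIF binds any of these promoters, or whether the matches bear on transcript levels, was not tested.

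With MØs added to the co-culture, 6 of the 33 testable genes were higher in PSCs and none was lower. The glucose transporter Slc2a1, hexokinase Hk2, lactate dehydrogenase Ldha, the pyruvate dehydrogenase kinase Pdk1, Hif1a and the prolyl hydroxylase Egln3 were higher in 3W-PSCs than 2W-PSCs, by 1.42- to 2.81-fold, at an adjusted p under 0.05 in edgeR's quasi-likelihood test. Among all 11513 genes tested in this comparison, 5.73% were called higher and 4.95% lower. The median log2 fold change was 0.32 over the 33 genes and 0.0025 over all genes, with 23 of the 33 above 0. At an unadjusted p under 0.05 the edgeR counts were 12 higher and 0 lower, but the share of all genes at that threshold was not taken. DESeq2 called 7 higher and 0 lower, beside 1808 of 17876 genes in either direction. In 10 of the 33 every 3W library lay above every 2W library and in none below, beside 11.5% and 9.87% of all genes. The plot of fold changes shows the 3 comparisons side by side.

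**Figure D1:**
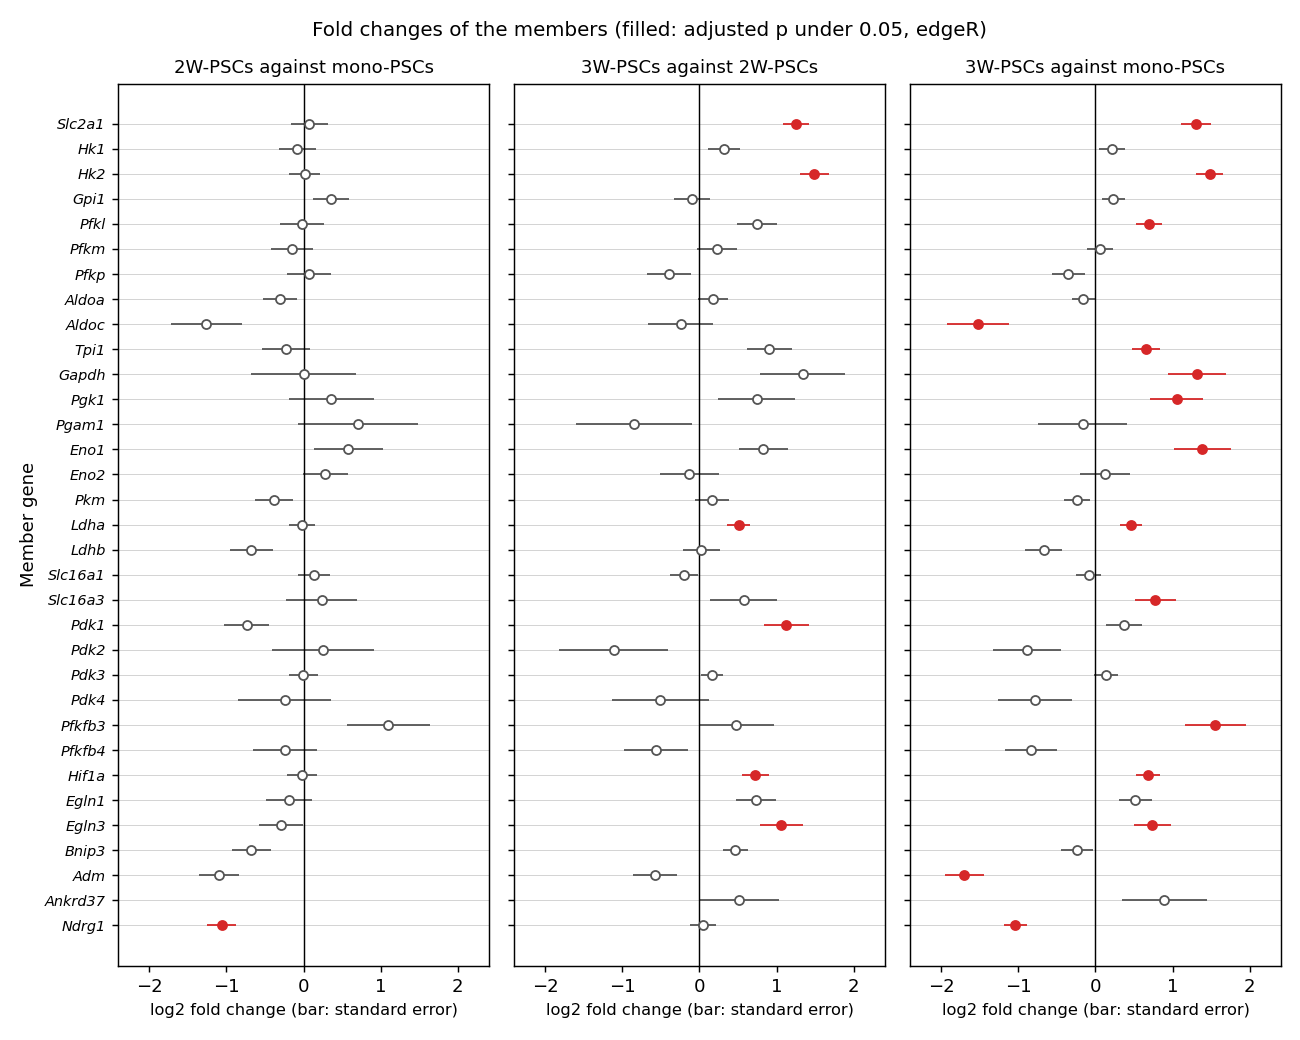
Log2 fold changes with standard errors (horizontal axis) of the 33 testable genes (rows) in 2W-PSCs against mono-PSCs, 3W-PSCs against 2W-PSCs and 3W-PSCs against mono-PSCs, filled red where the edgeR adjusted p was under 0.05. Filled points stand at 1 gene in the left panel, 6 in the middle panel, all to the right of 0, and 15 in the right panel, 12 to the right and 3 to the left.

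Slc2a1 and Hk2 were called in this comparison whichever library was left out, and the other 4 were not. Without 3W replicate 1, 3W replicate 2 or 2W replicate 4, Slc2a1 and Hk2 were the 2 genes called. Over all genes those fits called 550, 497 and 666 in either direction, beside 1230 with no library left out. Without 3W replicate 3 the 3 called were Slc2a1, Hk2 and Egln3, and without 2W replicate 1 or 3W replicate 4 the 4 called were Slc2a1, Hk2, Pdk1 and Hif1a. Without 2W replicate 3, 7 were called, with Tpi1 and Gapdh added and Ldha lost. All-gene calls were 750 without 3W replicate 3, 1113 without 2W replicate 1, 667 without 3W replicate 4 and 1313 without 2W replicate 3. Without 2W replicate 2, the library that stood apart, 12 genes were called higher and 0 lower, the 6 above and Hk1, Pfkl, Tpi1, Eno1, Slc16a3 and Bnip3, while the count over all genes in either direction went from 1230 to 2107.

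Few of the genes differed in co-culture with tumour cells alone. In 2W-PSCs against mono-PSCs, none of 32 testable genes was called higher and 1, Ndrg1, was called lower by edgeR, beside 0.839% and 0.152% of the 11199 genes tested. At an unadjusted p under 0.05, edgeR gave 0 higher and 6 lower, but the share of all genes at that threshold was not taken. DESeq2 called 0 higher and 2 lower, beside 275 of 17135 genes in either direction. The median log2 fold change was -0.023 over these genes and 0.020 over all genes. No gene had every 2W library above every mono library and 3 had them below, Pdk1, Adm and Ndrg1, beside 3.29% and 2.45% of all genes.

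Against mono-PSCs, 3W-PSCs had 12 of 33 genes higher and 3 lower, beside 13.4% and 13.0% of 11551 genes tested. The 12 were Slc2a1, Hk2, Pfkl, Tpi1, Gapdh, Pgk1, Eno1, Ldha, Slc16a3, Pfkfb3, Hif1a and Egln3, and the 3 were Aldoc, Adm and Ndrg1. The median log2 fold change was 0.21, with 0.012 over all genes. In 10 genes every 3W library lay above every mono library and in 4 below, beside 13.7% and 12.2% of all genes. This comparison shares its 3W libraries with the first and its mono libraries with the second, so the 3 are not independent. In all, 16 of the 34 genes were called in at least 1 comparison, 5 were higher in 3W-PSCs against both other cultures, and Slc2a3 was tested in none. The shares of all genes with these patterns were not taken, and 26.4% of all genes were called in 3W-PSCs against mono-PSCs alone.

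Slc2a1 encodes GLUT1, the transporter for basal glucose uptake (ENSMUSG00000028645, chr4:119108711-119137983, plus strand, GRCm38). Its level was 44.9, 21.9, 36.7 and 35.7 CPM in mono-PSC replicates 1 to 4, 42.7, 30.7, 40.4 and 31.5 CPM in the 2W libraries, and 94.0, 87.1, 87.7 and 77.9 CPM in the 3W libraries. The lowest 3W library was well above the highest of the other 8, and the mono and 2W values overlapped. The means were 34.8 ± 9.54, 36.3 ± 6.13 and 86.7 ± 6.62 CPM (SD, n = 4). In edgeR's quasi-likelihood test 3W-PSCs were 2.39-fold above 2W-PSCs (log2 1.26, SE 0.170, adjusted p = 0.00115) and 2.47-fold above mono-PSCs (log2 1.31, SE 0.191, adjusted p = 7.28e-05), whereas 2W-PSCs and mono-PSCs differed by log2 0.08 (SE 0.244, adjusted p = 0.999). The two-sided exact permutation p was 0.0286 against either culture, the smallest that 4 libraries against 4 allow. Exons of Slc2a1 overlap an opposite-strand gene over 105 bases. The neuron-type glucose transporter Slc2a3 (GLUT3) had 0 to 8 counts per library and was not tested.

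Hk2 is the inducible, mitochondria-binding hexokinase (ENSMUSG00000000628, chr6:82725025-82774454, minus strand). It stood at 39.0, 50.3, 35 and 46.2 CPM in the mono libraries, 52.2, 39.3, 42.7 and 36.1 CPM in the 2W libraries, and 139.7, 132, 110.1 and 96.4 CPM in the 3W libraries. All 4 of the 3W values were above every other value, and the other 2 cultures overlapped almost fully. This was the largest fold change of the 34 genes between 3W-PSCs and 2W-PSCs, 2.81-fold (log2 1.49, SE 0.185, edgeR adjusted p = 0.000689). Against mono-PSCs it was 2.79-fold (log2 1.48, SE 0.172, edgeR adjusted p = 5.88e-06), and 2W-PSCs differed from mono-PSCs by log2 0.01 (SE 0.205). Hk1, the constitutive hexokinase, averaged 92.4 ± 20.2, 86.6 ± 26.2 and 107 ± 8.46 CPM (SD, n = 4) and was not called in any comparison. Hk1 values in 2W-PSCs were 72.6 to 73.9 CPM in 3 libraries and 126 CPM in replicate 2, and without that replicate Hk1 was called higher in 3W-PSCs by log2 0.55 (SE 0.135, edgeR adjusted p = 0.0105). Of the hexokinase counts, Hk2 took 31.8% ± 3.15 in mono-PSCs, 33.8% ± 7.52 in 2W-PSCs and 52.4% ± 5.74 in 3W-PSCs (SD, n = 4). The lowest 3W share, 45.4%, was above the highest 2W share, 41.4%.

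The library with the most MØ marker counts, 3W replicate 4, had the lowest level of both genes in 3W-PSCs. Without it, Slc2a1 was higher in 3W-PSCs than 2W-PSCs by log2 1.31 (SE 0.193, edgeR adjusted p = 0.00468) and Hk2 by log2 1.58 (SE 0.196, edgeR adjusted p = 0.00179). The other 3W libraries had MØ marker sums of 7.75 to 12.8 CPM, and the part of MØ RNA in these differences was not tested.

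**Figure D2:**
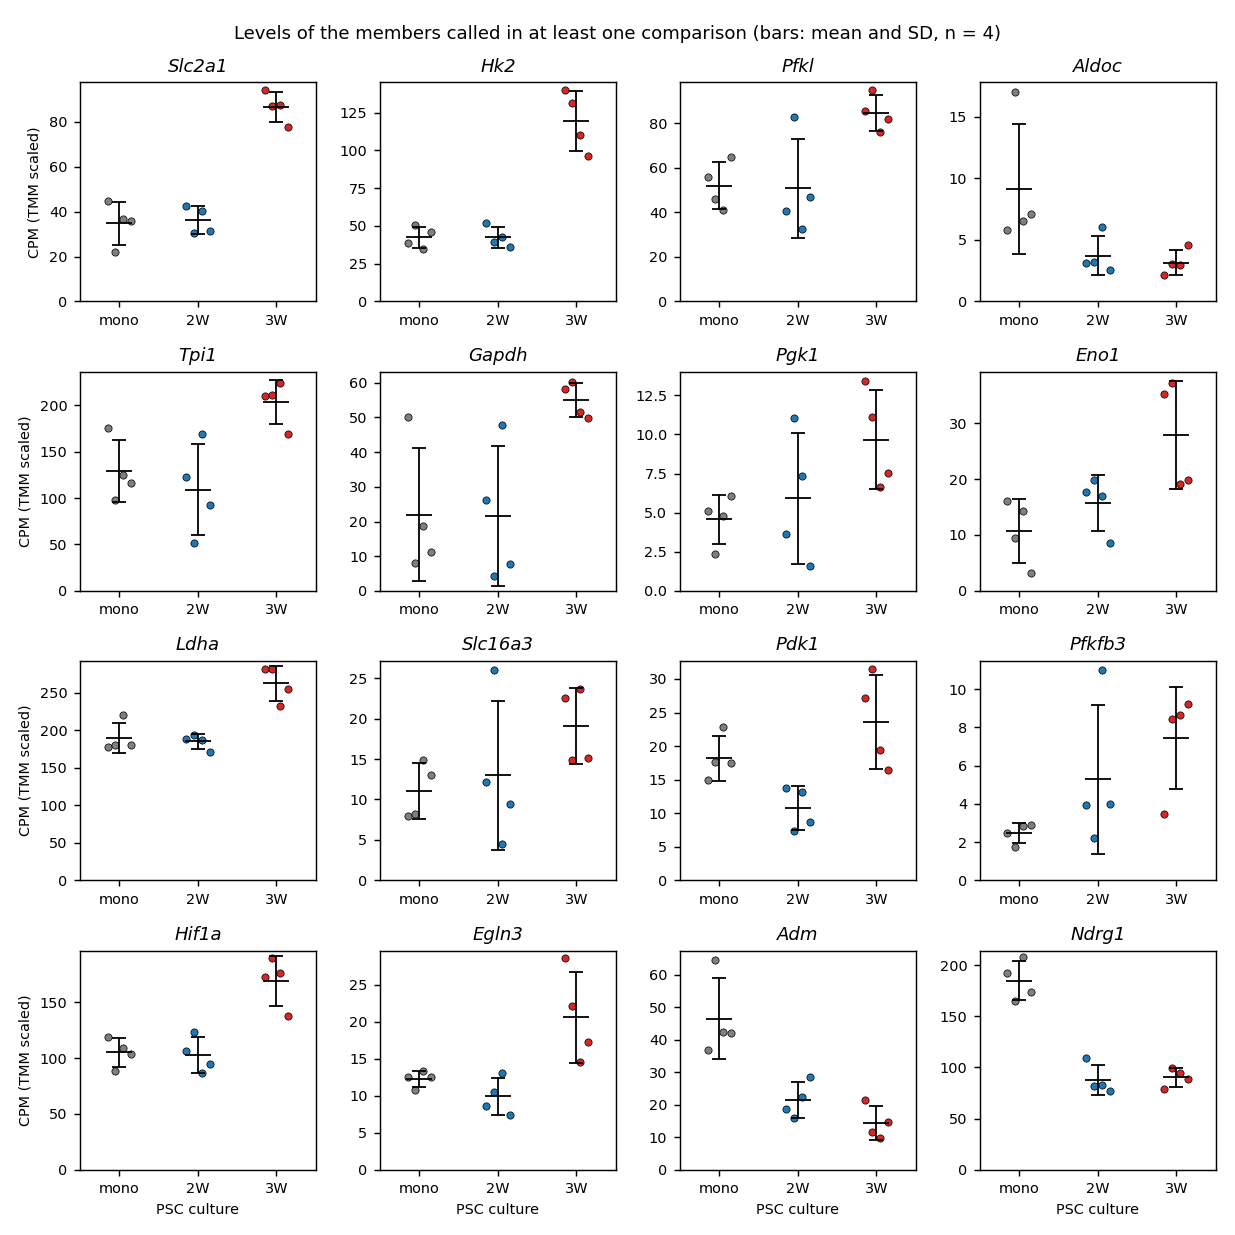
CPM (vertical axes, starting at 0) of the 16 genes called in at least 1 comparison in each of the 4 libraries (points) of mono-, 2W- and 3W-PSCs, with the mean and SD as bars. Slc2a1 and Hk2 separate all 3W points from the rest, Ndrg1 and Adm separate all mono points from the rest, and Gapdh, Pgk1 and Pfkfb3 spread widely within 2W-PSCs.

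Of the 15 glycolytic enzyme genes, all tested, 1 (Hk2) was higher in 3W-PSCs than 2W-PSCs and none lower, beside 5.73% and 4.95% of all genes. None was called in 2W-PSCs against mono-PSCs, beside 0.839% and 0.152%. In 3W-PSCs against mono-PSCs 6 were higher and 1 lower, beside 13.4% and 13.0%. Their levels spanned a wide range. Pkm, the pyruvate kinase gene of most tissues, had means of 741, 563 and 630 CPM, and Aldoa, the main aldolase, 446, 358 and 402 CPM. At the other end Pgk1 had means of 4.57, 5.91 and 9.67 CPM and Pgam1 of 2.38, 3.89 and 2.11 CPM, or 207 counts of Pgam1 in all 12 libraries. These low counts are unusual for genes that every cell uses at high level. Pgk1 shares a small part of its 3′ sequence with copies, as described below, and Pgam1 shares none.

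Pfkl, the liver-type phosphofructokinase, had means of 52.0 ± 10.5, 50.7 ± 22.2 and 84.5 ± 7.94 CPM (SD, n = 4). It was 1.62-fold higher in 3W-PSCs than mono-PSCs (log2 0.69, SE 0.167, edgeR adjusted p = 0.00526), with no overlap. In 1 fit of all 12 libraries this call was lost (edgeR adjusted p = 0.0591). Against 2W-PSCs the log2 difference was 0.74 (SE 0.261, edgeR adjusted p = 0.0957), and 82.9 CPM in 2W replicate 2 fell among the 3W values of 76.0 to 95.0 CPM. Without 2W replicate 2 it was 1.08 (SE 0.162, edgeR adjusted p = 0.000324). The muscle-type Pfkm and platelet-type Pfkp were not called in any comparison. Pfkl took 61.9% ± 4.66 of phosphofructokinase counts in 3W-PSCs, against 48.0% ± 4.74 in mono-PSCs and 47.3% ± 9.51 in 2W-PSCs.

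Tpi1, triosephosphate isomerase, read 176, 97.7, 125 and 116 CPM in the mono libraries, 122, 52.0, 169 and 92.5 CPM in the 2W libraries, and 210.0, 211, 225 and 169 CPM in the 3W libraries. It was 1.57-fold higher in 3W-PSCs than mono-PSCs by edgeR (log2 0.65, SE 0.178, adjusted p = 0.0113), although mono replicate 1 overlapped the 3W range and the two-sided exact permutation p was 0.0571. The call against mono-PSCs was lost in 1 fit of all 12 libraries (edgeR adjusted p = 0.110). Against 2W-PSCs all 3W values were higher, by log2 0.91, but the edgeR adjusted p was 0.0715.

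Gapdh, glyceraldehyde 3-phosphate dehydrogenase and a common reference gene, was erratic in 2 of the cultures. It read 50, 8.03, 18.8 and 11.1 CPM in the mono libraries, 26.3, 4.17, 47.9 and 7.87 CPM in the 2W libraries, and 58.2, 60.3, 51.7 and 49.9 CPM in the 3W libraries. The 3W values were thus alike while the others spanned a range of several-fold. Gapdh was 2.49-fold higher in 3W-PSCs than mono-PSCs (log2 1.32, SE 0.377, edgeR adjusted p = 0.0153), with mono replicate 1 inside the 3W range. The two-sided exact permutation p was 0.0571, and 1 fit of all 12 libraries did not call Gapdh. Left-out fits moved this log2 difference to 2.10 without mono replicate 1 and ended the call without mono replicate 3 (1.25, edgeR adjusted p = 0.0599), and DESeq2 did not call it. Against 2W-PSCs the log2 difference was 1.34 (SE 0.549, edgeR adjusted p = 0.148) with no overlap, and it was 2.07 without 2W replicate 3 (edgeR adjusted p = 0.0217).

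Eno1, the widely expressed enolase, read 16.1, 9.40, 14.2 and 3.15 CPM in the mono libraries, 17.7, 19.9, 17.0 and 8.51 CPM in the 2W libraries, and 35.2, 37.1, 19.1 and 19.9 CPM in the 3W libraries. It was 2.61-fold higher in 3W-PSCs than mono-PSCs (log2 1.39, SE 0.369, edgeR adjusted p = 0.00997), without overlap and under each of the 15 other settings. Pgk1, phosphoglycerate kinase, was 2.08-fold higher (log2 1.05, SE 0.345, edgeR adjusted p = 0.0309), with mono values of 2.35 to 6.05 CPM and 3W values of 6.62 to 13.4 CPM. The Pgk1 call was lost without mono replicate 2, mono replicate 3, 3W replicate 1 or 3W replicate 2, with edgeR adjusted p up to 0.120. It was also lost in 1 fit of all 12 libraries (edgeR adjusted p = 0.136). Eno2, the neuronal enolase, averaged 10.5 to 12.7 CPM and was not called.

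Aldoc, the aldolase of brain, moved the other way. It read 5.79, 17.0, 6.57 and 7.14 CPM in the mono libraries, 3.10, 3.19, 6.05 and 2.57 CPM in the 2W libraries, and 2.13, 3.01, 2.93 and 4.55 CPM in the 3W libraries. Every 3W value was below every mono value, and 3W-PSCs were 2.88-fold lower (log2 -1.53, SE 0.400, edgeR adjusted p = 0.00903). Without mono replicate 2, the library at 17.0 CPM, the log2 difference was -1.05 (SE 0.377, edgeR adjusted p = 0.0569). Aldoa, which makes up nearly all aldolase counts, Gpi1 and Pkm were not called in any comparison.

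Summed by step, hexokinase transcripts were 135 ± 25.8 CPM in the mono libraries, 129 ± 24.9 CPM in the 2W libraries and 227 ± 15.6 CPM in the 3W libraries (SD, n = 4), with every 3W library above every other library. The sum over all 10 steps was 1699 ± 171, 1428 ± 314 and 1804 ± 124 CPM, with overlapping ranges. Hexokinase took 7.95%, 9.04% and 12.6% of the mean sum and pyruvate kinase 43.6%, 39.4% and 34.9%. These sums are descriptions without a test.

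**Figure D3:**
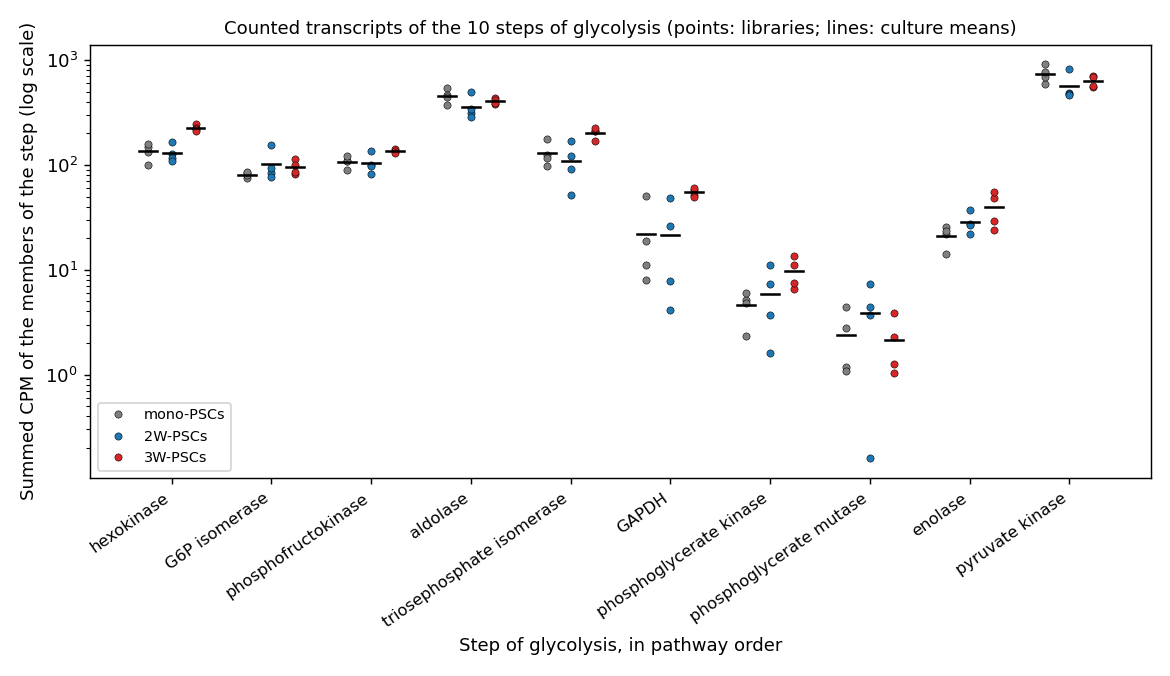
Summed CPM (vertical axis, log scale) of the genes of each of the 10 steps of glycolysis, in pathway order (horizontal axis), in each library (points) and as culture means (lines). The 3W points of hexokinase lie above all others, pyruvate kinase and aldolase carry the highest levels, and phosphoglycerate kinase and mutase the lowest.

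Copies limit what the low levels mean. With 75-base reads, 10 of the 34 genes share at least 1 window in the last 500 bases of their protein-coding transcripts with another gene in the GRCm38 annotation, and how the authors counted reads that fit several places is not given in the sources used here. Gapdh shares 58.6% of its windows, with 99 other genes, and Eno1 63.3%, whereas Pgk1 shares 1.88% and Pgam1 none. The 2 partner genes of Eno1 in the table held 5857 counts against 1502 for Eno1, and the 2 of Pgk1 held 1969 against 552. When these partner counts were added to the gene, the log2 difference of 3W-PSCs from 2W-PSCs became 0.91 for Eno1 (SE 0.181, edgeR adjusted p = 0.00967), 0.49 for Pgk1 (SE 0.294, edgeR adjusted p = 0.325) and 1.24 for Gapdh (SE 0.422, edgeR adjusted p = 0.0865). Against mono-PSCs the summed values were 0.96, 0.80 and 1.12, all called. Slc2a1, Hk2, Hif1a, Pdk1, Egln3, Adm and Ndrg1 share no such window. Ldha shares 4.98%, and its fold changes kept their values to 2 decimals.

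Ldha, the pyruvate-to-lactate subunit of lactate dehydrogenase (ENSMUSG00000063229, chr7:46841475-46855627, plus strand), read 178, 180.4, 220.5 and 181 CPM in the mono libraries, 188, 194, 188 and 171 CPM in the 2W libraries, and 282, 282, 233 and 255 CPM in the 3W libraries. The 3W libraries lay above the rest, with the narrowest gap to mono replicate 3. The increase was small, 1.42-fold over 2W-PSCs (log2 0.51, SE 0.145, edgeR adjusted p = 0.0475) and 1.38-fold over mono-PSCs (log2 0.46, SE 0.145, edgeR adjusted p = 0.0258). The first call held in 5 of 15 other settings, with adjusted p up to 0.158, and the second in 10, with adjusted p up to 0.0958. Both were lost without 3W replicate 1, 3W replicate 2 or 3W replicate 4. The second was also lost without mono replicate 2 or mono replicate 4. Ldhb, the subunit that favours lactate oxidation, averaged 29 ± 9.71, 17.9 ± 3.68 and 18.2 ± 3.74 CPM (SD, n = 4) and stood at log2 -0.67 in 3W-PSCs against mono-PSCs (SE 0.245, edgeR adjusted p = 0.0508). Without mono replicate 1 it was -0.85 (edgeR adjusted p = 0.00535). Ldha took 86.9%, 91.2% and 93.4% of the counts of both genes.

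Slc16a3 encodes MCT4, an exporter of lactate. Its 3W values were 14.9 to 23.7 CPM, above mono values of 7.90 to 14.9 CPM by the smallest margin, and 1.71-fold higher by edgeR (log2 0.77, SE 0.264, adjusted p = 0.0379). The call was lost without 3W replicate 1, 3W replicate 3, mono replicate 1 or mono replicate 2, with adjusted p up to 0.114. In 1 fit of all 12 libraries the call was lost too (edgeR adjusted p = 0.203). In 2W-PSCs Slc16a3 ranged from 4.46 CPM to 26 CPM, the latter in replicate 2. Slc16a1, or MCT1, averaged 68.2 to 78.6 CPM and was not called.

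Pdk1 phosphorylates pyruvate dehydrogenase and so keeps pyruvate out of the mitochondrial citric acid cycle. It read 14.9, 17.6, 22.9 and 17.4 CPM in the mono libraries, 13.8, 7.36, 13.2 and 8.67 CPM in the 2W libraries, and 27.2, 31.5, 19.3 and 16.4 CPM in the 3W libraries. The 2W libraries lay below both other cultures, which overlapped each other. In 3W-PSCs it was 2.18-fold above 2W-PSCs (log2 1.13, SE 0.289, edgeR adjusted p = 0.0318), while the 2W against mono difference of log2 -0.74 was not called (SE 0.290, edgeR adjusted p = 0.488), nor was the 3W against mono difference of 0.37 (SE 0.235, edgeR adjusted p = 0.265). Pdk1 thus differed between 2W-PSCs and 3W-PSCs without a called difference from mono-PSCs. The 3W against 2W call held in 10 of 15 other settings and was lost, among others, without 2W replicate 4 or any of 3W replicates 1, 2 and 3, with edgeR adjusted p up to 0.119. Pdk3 was the most abundant of the kinases at 61.9 to 69.3 CPM, and Pdk2 and Pdk4 averaged under 6 CPM. None of these 3 was called. The share of Pdk1 among the 4 kinases was 20.4%, 13.2% and 24%.

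**Figure D4:**
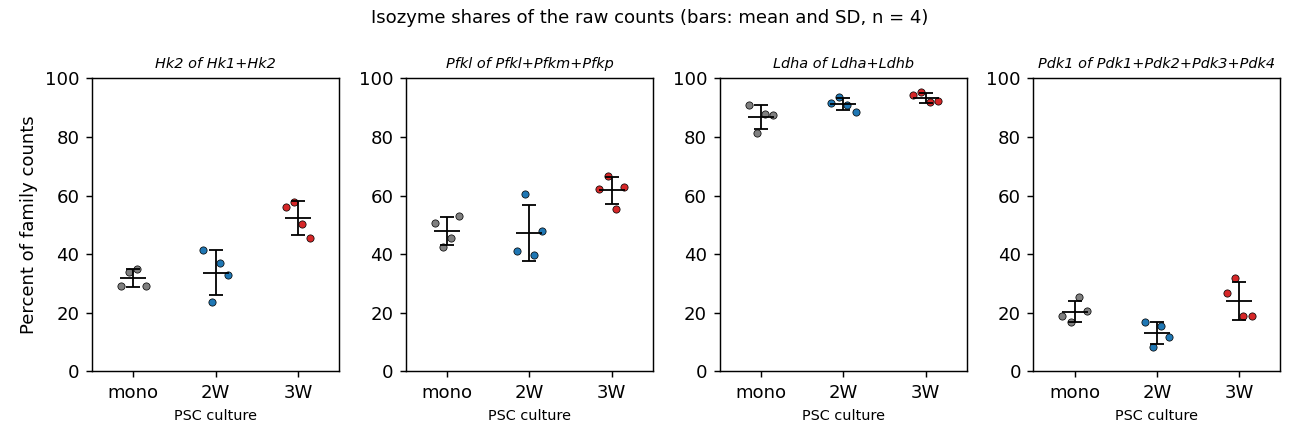
Percent of the raw counts of an enzyme family (vertical axes) taken by Hk2, Pfkl, Ldha and Pdk1 in each of the 4 libraries (points) of each culture, with mean and SD as bars. The Hk2 share in 3W-PSCs, 45.4% or more, lies above every 2W and mono library, while the Pfkl share overlaps in 2W replicate 2, the Ldha share overlaps between cultures, and the Pdk1 share in 3W-PSCs lies above every 2W library but overlaps with mono-PSCs.

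The isozyme shares were chosen after the gene values were seen and carry no test. In particular, no test was made of whether Hk2 changed more than Hk1.

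Pfkfb3 makes fructose 2,6-bisphosphate, the strongest activator of phosphofructokinase. It read 2.46, 1.76, 2.84 and 2.90 CPM in the mono libraries, 3.94, 2.21, 11 and 4.01 CPM in the 2W libraries, and 3.45, 8.44, 8.65 and 9.22 CPM in the 3W libraries. It was 2.94-fold higher in 3W-PSCs than mono-PSCs, the largest fold increase of the 34 genes in that comparison (log2 1.56, SE 0.391, edgeR adjusted p = 0.00686), on 9 to 73 counts per library. Against 2W-PSCs it was not called (log2 0.48, SE 0.485), and 2W replicate 3 exceeded all 3W libraries. Pfkfb4 lay lower in all 3W libraries, 2.54 to 4.55 CPM, than in all mono libraries, 5.88 to 7.81 CPM, but the log2 difference of -0.83 was not called (SE 0.338, edgeR adjusted p = 0.0785).

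Hif1a (ENSMUSG00000021109, chr12:73901375-73947530, plus strand) read 119, 88.3, 109 and 104 CPM in the mono libraries, 107, 123, 86.3 and 94.2 CPM in the 2W libraries, and 173, 189, 176 and 138 CPM in the 3W libraries. No 3W library overlapped with the other 8. It was 1.65-fold above 2W-PSCs (log2 0.72, SE 0.172, edgeR adjusted p = 0.0223) and 1.60-fold above mono-PSCs (log2 0.68, SE 0.154, edgeR adjusted p = 0.00348), and 2W-PSCs differed from mono-PSCs by -0.02 (SE 0.189). The call against mono-PSCs held in all 15 other settings. The call against 2W-PSCs held in 11 of 15 and was lost without 2W replicate 4 or any of 3W replicates 1, 2 and 3, with adjusted p up to 0.0887. Without 3W replicate 4 the log2 difference was 0.81 (SE 0.184, edgeR adjusted p = 0.0319). Exons of Hif1a overlap those of other genes over 148 bases on the same strand and 330 on the opposite strand, so its counts can hold reads of these neighbours.

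Egln3 (PHD3), a hydroxylase of HIF1A that is itself a HIF target, read 12.5, 10.8, 13.3 and 12.6 CPM in the mono libraries, 8.59, 10.5, 13.1 and 7.39 CPM in the 2W libraries, and 28.6, 22.1, 14.5 and 17.3 CPM in the 3W libraries. Again all 3W values were above all others. The fold changes were 2.09 over 2W-PSCs (log2 1.06, SE 0.280, edgeR adjusted p = 0.0352) and 1.67 over mono-PSCs (log2 0.74, SE 0.238, edgeR adjusted p = 0.0291). The call against 2W-PSCs held in 9 of 15 other settings and was lost, among others, without 2W replicate 1, 2W replicate 4 or 3W replicate 2 (edgeR adjusted p of 0.0827 to 0.109). Without 3W replicate 1 the edgeR adjusted p were 0.119 and 0.140. The call against mono-PSCs was also lost without 3W replicate 2, mono replicate 2 or mono replicate 4, with edgeR adjusted p of 0.0579 to 0.0792. In 1 fit of all 12 libraries the call against mono-PSCs was lost too. Without 3W replicate 4, the log2 difference from 2W-PSCs was 1.14 (SE 0.311, edgeR adjusted p = 0.0630). Egln1 (PHD2), the main oxygen sensor, averaged 48.8 ± 16.7, 42.2 ± 14.3 and 70.2 ± 14.5 CPM (SD, n = 4). Its 3W values were above its 2W values by a narrow gap, 54.7 against 54.5 CPM, and its log2 differences of 0.73 from 2W-PSCs (SE 0.263, edgeR adjusted p = 0.103) and 0.52 from mono-PSCs (SE 0.215, edgeR adjusted p = 0.0846) were not called.

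Of the other 4 hypoxia-response genes, 0 were called higher and 2 lower in 3W-PSCs against mono-PSCs, beside 13.4% and 13.0% of all genes. In 2W-PSCs against mono-PSCs 3 were tested, with 0 higher and 1 lower, beside 0.839% and 0.152% of all genes. None was called between 3W-PSCs and 2W-PSCs. Ndrg1, a stress-responsive gene that is a common marker of hypoxia (ENSMUSG00000005125, chr15:66929318-66969640, minus strand), read 192, 165, 208 and 174 CPM in the mono libraries, 109, 81.9, 82.8 and 76.6 CPM in the 2W libraries, and 78.4, 99.1, 94.9 and 88.6 CPM in the 3W libraries. Both co-cultures lay entirely below mono-PSCs and overlapped each other. Ndrg1 was 2.09-fold lower in 2W-PSCs (log2 -1.06, SE 0.188, edgeR adjusted p = 0.0151) and 2.06-fold lower in 3W-PSCs (log2 -1.04, SE 0.148, edgeR adjusted p = 5.40e-05) than mono-PSCs. It was 1 of 17 genes called lower among the 11199 tested in 2W-PSCs. The difference between the co-cultures was log2 0.05 (SE 0.165, edgeR adjusted p = 0.890). The 2W call was lost without 2W replicate 4, mono replicate 3 or mono replicate 4 (edgeR adjusted p = 0.0918, 0.0641 and 0.0553). Exons of Ndrg1 overlap 2 opposite-strand genes over 556 bases.

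Adm, which encodes the vasodilator peptide adrenomedullin (ENSMUSG00000030790, chr7:110627661-110629820, plus strand), read 36.7, 64.6, 42.4 and 42.0 CPM in the mono libraries, 18.7, 15.9, 22.4 and 28.6 CPM in the 2W libraries, and 21.5, 11.6, 9.80 and 14.5 CPM in the 3W libraries. Every co-culture library was below every mono library. It was 3.25-fold lower in 3W-PSCs than mono-PSCs (log2 -1.70, SE 0.249, edgeR adjusted p = 7.24e-05), the largest decrease of the 34 genes in any comparison and one that held in all 15 other settings. The 2W against mono difference was -1.10 (SE 0.254) with an edgeR adjusted p of 0.0720. It was called without 2W replicate 2 (-0.99, edgeR adjusted p = 0.0416) and by DESeq2 (adjusted p = 0.00907). The 3W against 2W difference was -0.58 (SE 0.286, edgeR adjusted p = 0.226).

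Bnip3, a mitochondrial protein of mitophagy, read 42.1, 102, 77.2 and 71.5 CPM in the mono libraries, 38.5 to 52.1 CPM in the 2W libraries and 54.4 to 70.1 CPM in the 3W libraries. The 3W libraries were above the 2W libraries, but the log2 difference of 0.46 was not called (SE 0.166, edgeR adjusted p = 0.1001), except without 2W replicate 2 (edgeR adjusted p = 0.0498). Ankrd37, another HIF target, had 4 to 30 counts per library, was not tested between 2W-PSCs and mono-PSCs, and was not called in the other 2 comparisons.

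The epithelial marker sum was also higher in both co-cultures, as described above, while Ndrg1 and Adm were lower there. The part of tumour-cell RNA in these decreases was not tested.

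A wider list of 62 further genes of glucose and pyruvate use and of the hypoxia response, 61 of them in the table, moved in both directions. Between 3W-PSCs and 2W-PSCs 45 could be tested, with 3 higher and 3 lower and a median log2 fold change of 0.063. Between 2W-PSCs and mono-PSCs edgeR called 0 of 44, and between 3W-PSCs and mono-PSCs 6 of 46 were higher and 9 lower, with a median of 0.083. Over all genes, the shares called in either direction were 10.7%, 0.991% and 26.4%. Described by their log2 change above 1 are Ak4 and Eno3. Ak4, a mitochondrial adenylate kinase, averaged 7.26 ± 2.30, 4.06 ± 3.19 and 15.9 ± 4.60 CPM (SD, n = 4) and was higher in 3W-PSCs than 2W-PSCs (log2 1.93, SE 0.517, edgeR adjusted p = 0.0376) and mono-PSCs (log2 1.12, SE 0.292, edgeR adjusted p = 0.00886). Eno3, the muscle enolase, averaged 32.5 ± 5.95, 18.5 ± 7.06 and 8.40 ± 0.791 CPM and was lower in 3W-PSCs than 2W-PSCs (log2 -1.14, SE 0.287, edgeR adjusted p = 0.0292) and mono-PSCs (log2 -1.96, SE 0.212, edgeR adjusted p = 2.64e-06). The 3W against 2W calls of Ak4 and Eno3 held in 8 of 14 and 8 of 15 other settings and were lost without 3W replicate 2, with adjusted p of 0.123 and 0.0929.

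Further calls on the wider list were looked up after their values were seen. Against 2W-PSCs, Fam162a and Mif were higher in 3W-PSCs, by log2 0.96 and 0.88, and Vhl and Lox lower, by -0.62 and -0.72. The calls held in 10 of 15 other settings for Fam162a, 13 for Mif, 5 for Vhl and 9 for Lox, and each was lost without 3W replicate 2, with edgeR adjusted p of 0.0562 to 0.145. Vhl is the ubiquitin ligase subunit that removes hydroxylated HIF1A, and Lox the collagen cross-linking enzyme that is also a HIF target. Of 10 genes that admit pyruvate to mitochondria, none was higher and 3 were lower in 3W-PSCs than mono-PSCs, beside 13.4% and 13.0% of all genes. These were Mpc2, a subunit of the pyruvate carrier (log2 -0.93), and Pdha1 and Pdhb, subunits of pyruvate dehydrogenase (log2 -0.42 and -0.72). The calls of Mpc2 and Pdhb held in all 15 other settings and that of Pdha1 in 5. Of 18 further HIF targets tested in that comparison, 4 were higher and 3 lower. The 3 lower were Ero1l, an oxidase of the endoplasmic reticulum (log2 -0.84), Narf (log2 -0.90) and Higd1a (log2 -0.74), with calls that held in 15, 15 and 10 of 15 other settings. Vegfa, the angiogenic factor, was among the 4 higher, by log2 0.56, a call that held in 9 of 15. Its 3W and mono values overlapped (two-sided exact permutation p = 0.0857). Fam162a was also among the 4, with a call that held in 11 of 15 other settings. Outside the HIF targets, Arnt and Gpd2 were higher in 3W-PSCs than mono-PSCs, with calls that held in 10 and 15 of 15. Vhl and Taldo1 were lower, with calls that held in 7 and 11 of 15.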

How the data were processed

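The authors prepared QuantSeq 3′ libraries from sorted PSCs, aligned the reads to the GRCm38 genome with STAR and assigned them to Ensembl genes with featureCounts, and they deposited the raw read counts of 12 libraries in 1 table. The strand setting, the handling of reads that fit several places and any use of molecular identifiers are not given in the sources used here. The 34 genes and all lists were chosen with earlier results of these data known.

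Libraries were grouped by the culture condition of their labels, 4 per culture. Each pair of cultures was tested on the deposited counts over the whole table with edgeR 4.0.16 (R 4.3.3): filterByExpr, TMM scaling, glmQLFit and glmQLFTest, without a replicate block, and Benjamini-Hochberg adjustment over all genes tested, with calls at an adjusted p under 0.05. The SE was taken as the log2 fold change over the square root of F, and fold changes carry a prior count of 0.125. Nothing in the labels ties a library to a separate animal, so p-values measure the spread between cultures of 1 line. No pair of libraries was identical. Alternatives were DESeq2 1.42.0 as test and as scaling, no filter, at least 10 counts in every library, 1 fit of all 12 libraries, a replicate block, each library left out, and, chosen after seeing the data, near-identical copies summed. The fits were tested on simulated data.

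Single genes, among them those given library by library, were also compared by a two-sided exact permutation test of mean CPM. The p of that test is printed for Slc2a1, Tpi1, Gapdh and Vegfa only. Every one of the 34 genes is accounted for. Fold change, SE and adjusted p are given for each gene called and fold changes for uncalled genes whose libraries did not overlap, while of the wider list those called with a log2 change above 1 are named, except 1 that is not reported here. Gene positions and copies come from the GENCODE annotation of GRCm38 and promoters from RefSeq.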

Additional observations from a re-analysis of the deposited data

Results flagged for a closer look

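In 7 of 99 sets of 4 libraries of 1 gene and 1 culture, the highest or lowest library lay far from the other 3, by Dixon's criterion at 95%. Chance alone marks about 1 set in 20. Of these sets, 3 had 2W replicate 2 as the distant library. It read 126 CPM for Hk1 with the others at 72.6 to 73.9 CPM, 827 CPM for Pkm with the others at 463 to 481 CPM, and 15.5 CPM for Pdk2 with the others at 1.12 to 3.52 CPM. Among mono-PSCs, Aldoc stood at 17.0 CPM in replicate 2 against 5.79 to 7.14 CPM, Ldha at 220.5 CPM in replicate 3 against 178 to 181 CPM, and Pdk4 at 6.49 CPM in replicate 1 against 2.84 to 3.27 CPM. In 3W-PSCs, Pfkfb3 stood at 3.45 CPM in replicate 1 against 8.44 to 9.22 CPM, on 26 counts.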

How the results depend on the processing

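Of the 34 genes, the number higher in 3W-PSCs than 2W-PSCs was 6. It was 3 under the replicate block and 2 to 12 with 1 library left out, and the cause was not tested. Calls over all genes in either direction were 1230, with 752 under the replicate block and 497 to 2107 with 1 library left out. The number lower in 2W-PSCs than mono-PSCs was 1, with 2 without a filter, in 1 fit of all 12 libraries and by DESeq2 (Adm was the gene added in each), and 0 to 2 with 1 library left out. The number higher in 3W-PSCs than mono-PSCs was 12, with 6 in 1 fit of all 12 libraries and 8 to 12 with 1 library left out. Pfkl, Tpi1, Gapdh, Pgk1, Slc16a3 and Egln3 were not called in that fit of all 12 libraries. Calls over all genes in either direction went from 3054 to 2063 there. The number lower was 3, with 2 to 5 with 1 library left out. No gene was called lower in 3W-PSCs than 2W-PSCs or higher in 2W-PSCs than mono-PSCs under any of the 15 other settings run, and no called gene changed sign.

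Same-numbered replicates did not move together in every pair: the correlations of their deviations were -0.048 to 0.155 between 3W-PSCs and 2W-PSCs, 0.099 to 0.338 between 2W-PSCs and mono-PSCs, and 0.002 to 0.107 between 3W-PSCs and mono-PSCs. Between 2W-PSCs and mono-PSCs, libraries of different number gave -0.264 to 0.215, so pairing by number cannot be dismissed in that comparison. The numbers were not used to pair libraries in the main tests, and the replicate block was run as an alternative. Under the replicate block, edgeR called Slc2a1, Hk2 and Hif1a in 3W-PSCs against 2W-PSCs, and the counts of the other comparisons stayed at 1, 12 and 3. Genes with few counts (Slc2a3, Ankrd37, Pgam1, Pfkfb3, Pdk2 and Pdk4) are measured least well. So are Gapdh and Eno1, which share most of their 3′ windows with copies. The copies of Pgk1 held more counts than Pgk1 itself, but it shares only 1.88% of its windows.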
